A study of Mus musculus with 16 samples.

Results

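The 10 genes described here serve DNA replication and the supply of its building blocks. They are Mcm2, Mcm3, Mcm4, Mcm5, Mcm6, Mcm7, Cdt1, Pcna, Rrm1 and Rrm2, chosen by their symbols. They were 10 of the 18507 genes tested, and 13 of the 41174 probes on the array carried them. On GRCm38.p6 they lie on chromosomes 6 (Mcm2), 1 (Mcm3, Mcm6), 16 (Mcm4), 8 (Mcm5, Cdt1), 5 (Mcm7), 2 (Pcna), 7 (Rrm1) and 12 (Rrm2). RNA from livers of male C57BL/6 mice aged 3 months was measured on 16 arrays with 1 dye, in 4 groups of 4: dexamethasone-treated and untreated mice labelled GR knockout, and dexamethasone-treated and untreated wild-type mice. GR stands for the glucocorticoid receptor, the product of Nr3c1, and dexamethasone is a synthetic hormone that activates it. The treatment protocol calls the mutants liver knockouts and the untreated mice vehicle-treated. How Nr3c1 was deleted, and the dose, route and duration of treatment, are not stated. Whether each replicate was a separate mouse is not stated either, so p-values measure only the spread between these samples, which may be technical.

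Mcm2 to Mcm7 encode the 6 subunits of the ring that is loaded on DNA at replication origins before S phase and then unwinds it as the replicative helicase. Cdt1 helps to load that ring. Pcna forms the sliding clamp that holds DNA polymerases on their template, and Rrm1 and Rrm2 are the large and small subunits of ribonucleotide reductase, which makes deoxynucleotides from ribonucleotides. Most of these genes are transcribed at the entry into S phase under control of E2F transcription factors. In the adult liver most hepatocytes are quiescent and re-enter the cycle after tissue loss.

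Each value below is a log2 level relative to the 75th percentile of its own array, so 0 is that percentile. Levels are compared only within a gene, since probes differ in brightness. On 14 arrays the 75th percentile of intensity was 502.7 to 662.6 units, with lower values on untreated knockout array 1 (295.8) and on array 4 of the untreated wild type (383.7). Untreated knockout array 1 also had the lowest mean correlation with its own group, 0.963. Every slide held the arrays of a single group, and effects of slide and of group cannot be told apart. Nr3c1, the deleted gene, was lower in knockout livers, with a log2 change of -1.97 (SE 0.15, limma adjusted p = 6.1e-06) under dexamethasone and -1.99 (SE 0.15, adjusted p = 1.8e-05) without it. That is the brightest of 4 Nr3c1 probes, and 2 of the others were also called lower in both comparisons. The dimmer of these 2 passed the filter only through its wild-type signal. Among the knockouts, just 1 treated array cleared background well on it. The size of its change is therefore not measured, and its call is not separate support. The remaining probe was not called (-0.97, SE 0.51, adjusted p = 0.2 over all probes kept under dexamethasone, and -1.63, SE 0.51, adjusted p = 0.1 without it). On that probe treated knockout array 1 read -1.39, above the other 3 treated knockout arrays (-4.39 to -4.02) and above all 8 wild-type arrays (-2.80 to -2.02), while on the brightest probe it read -0.04, the lowest of its group. The place of the probes relative to the deletion is not stated. Of 10 hepatocyte markers, 9 were on the array and were well above background on all 16 arrays. In bulk liver RNA, a change in the number of cells of a type and a change in RNA per cell cannot be told apart.

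Under dexamethasone, 6 of the 10 genes were higher in knockout than in wild-type livers and 1, Rrm2, was lower, at a limma p adjusted over all genes tested of under 0.05. The 6 were Mcm2, Mcm3, Mcm4, Mcm5, Mcm6 and Rrm1. Over all 18507 genes, 22.3% passed the same threshold, 14% higher and 8.27% lower. The median log2 change was 0.94 over the 10 genes and 0.09 over all genes. The genes were measured by single probes apart from Mcm3, Mcm4 and Rrm1. For Mcm4 and Rrm1 the second probe was not well above background on any array and is not used, and the other 11 probes were well above background on all 16 arrays. All 10 genes passed the filter on dim probes.

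Among the helicase subunits, Mcm2 changed most. Its levels were 0.26, -1.13, -1.47 and -1.08 in treated knockout livers, against -2.64, -2.56, -3.11 and -2.47 in treated wild-type livers. Every treated knockout array lay above every treated wild-type array, with array 1 of the knockouts the highest. The log2 change was 1.84 (SE 0.32, 3.58-fold, adjusted p = 0.0012, higher in 4 of 4 arrays). Untreated knockout livers had Mcm2 levels of -0.98, -1.29, -1.73 and -0.60, against -2.15, -2.33, -2.12 and -2.52 in untreated wild-type livers. Again the groups did not overlap, as for 7.8% of all genes in this direction, but the change of 1.13 (SE 0.32) missed the threshold (adjusted p = 0.07).

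Mcm3 was read by a pair of probes. The brighter gave 1.49, 0.60, 0.23 and 0.37 in treated knockout livers, against -0.82, -0.73, -1.11 and -0.47 in treated wild-type livers. These groups did not overlap, and the log2 change was 1.45 (SE 0.28, adjusted p = 0.0022). The other probe, which reads coding sequence, gave a change of 1.51 (SE 0.27, adjusted p = 0.0014 over all probes kept). That probe is shown because it is a separate reading of the same transcript, and the array's annotation places it on mouse build mm7 at chr1:21000880-21001396, a span of 517 bases for a probe of 60.
Mcm3 probe: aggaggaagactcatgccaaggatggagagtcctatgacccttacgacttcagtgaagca
In untreated livers the brighter Mcm3 probe gave 0.58, 0.63, 0.02 and 1.17 in knockouts, against -0.41, -0.75, -0.06 and -0.42 in wild type. The groups did not overlap, and the change was 1.02 (SE 0.28, adjusted p = 0.063). The coding probe's change was 0.53 (SE 0.27, adjusted p = 0.31), so the probes differed in the size of this change.

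Mcm4 levels were 2.47, 1.28, 1.24 and 1.52 in treated knockout livers, against 0.49, 0.50, 0.43 and 0.65 in treated wild-type livers. The wild-type arrays lay close together and all below the knockouts, for a log2 change of 1.11 (SE 0.26, adjusted p = 0.008). Mcm6 levels were 3.38, 2.23, 2.03 and 2.57 in treated knockouts, against 1.12, 0.86, 1.26 and 1.73 in treated wild type. This was a change of 1.31 (SE 0.33, adjusted p = 0.012), with no overlap. In untreated livers Mcm4 differed by 0.54 (SE 0.26, adjusted p = 0.28) and Mcm6 by 0.90 (SE 0.33, adjusted p = 0.15), and the groups overlapped for both.

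Mcm5 had the largest standard error of the Mcm genes. Its levels were 0.19, -1.31, -1.39 and -0.42 in treated knockout livers, against -2.30, -2.73, -2.09 and -1.78 in treated wild-type livers. The groups did not overlap, and the log2 change was 1.49 (SE 0.43, adjusted p = 0.022). The Mcm5 call was lost without treated knockout array 1 (1.18, adjusted p = 0.069), without treated knockout array 4 (1.39, adjusted p = 0.053), without treated wild-type array 1 (1.47, adjusted p = 0.051) and without treated wild-type array 2 (1.32, adjusted p = 0.064). In untreated livers Mcm5 spread over -1.87, -0.83, -1.50 and 0.25 in knockouts, against -1.95, -2.05, -1.51 and -2.30 in wild type. These ranges overlapped, and the change of 0.96 (SE 0.43) was not called (adjusted p = 0.23).

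Mcm7 stood apart from the other subunits. Its levels were 2.79, 2.19, 2.03 and 2.12 in treated knockout livers, against 1.98, 2.28, 2.10 and 2.17 in treated wild-type livers. The ranges overlapped, and the change was 0.15 with a 95% interval of -0.21 to 0.51 (adjusted p = 0.58). Without treated knockout array 1 the sign turned, to -0.02. In untreated livers the change was 0.04 with an interval of -0.32 to 0.40. The difference between Mcm7 and the other subunits was not tested.

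The high arrays were shared. Treated knockout array 1, the array that stood apart on 1 Nr3c1 probe, had the highest level of its group for Mcm2, Mcm3, Mcm4, Mcm5, Mcm6 and Mcm7, and untreated knockout array 4 for Mcm2, Mcm3, Mcm4, Mcm5 and Mcm6. Without treated knockout array 1 the changes under dexamethasone were 1.47 for Mcm2, 1.18 for Mcm3, 0.83 for Mcm4, 1.18 for Mcm5 and 1.03 for Mcm6. Of these, Mcm5 alone lost its call. Across the 16 arrays the 10 pairs among Mcm2 to Mcm6 had Pearson r of 0.861 to 0.976, and of 0.653 to 0.916 after each group's mean was taken out. These are descriptions over arrays that share their groups.

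**Figure D1:**
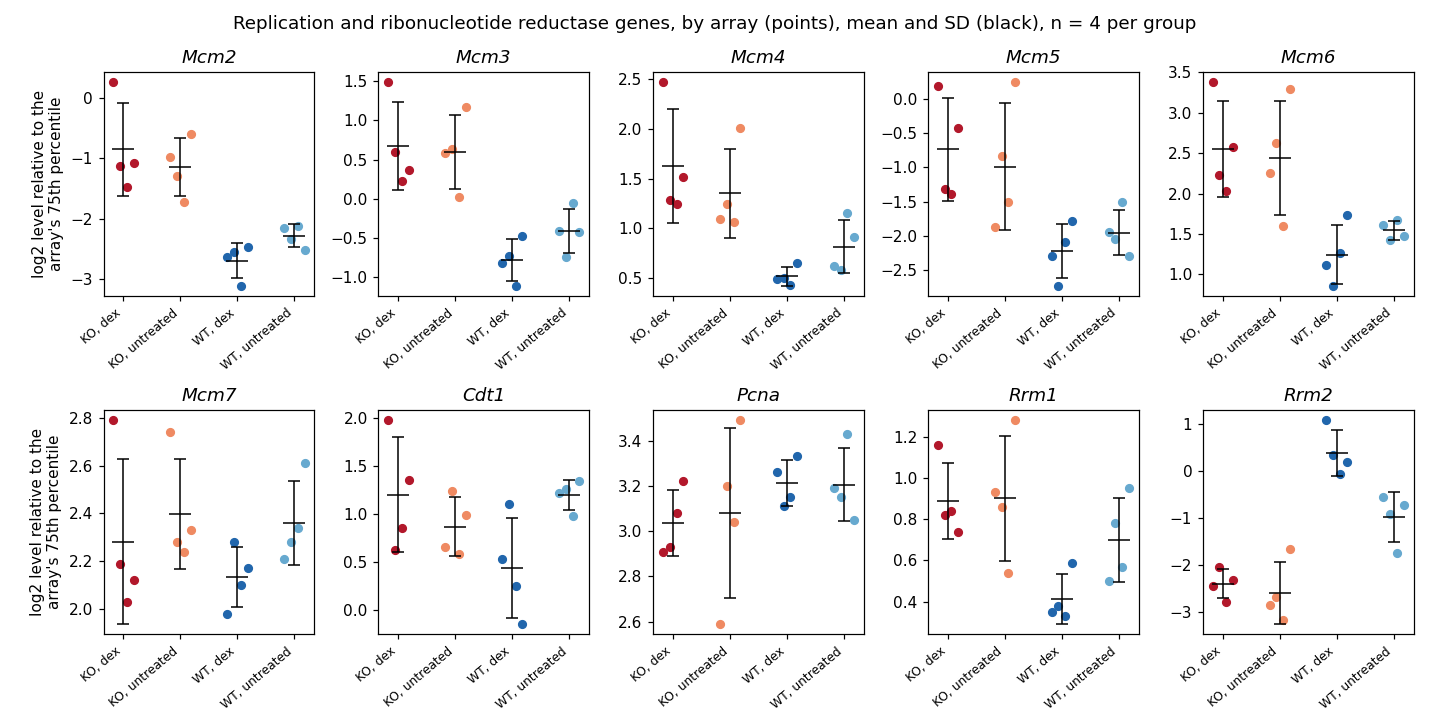
Log2 level of each gene, relative to the 75th percentile of its array, on the 16 arrays (1 point per array, arrays 1 to 4 from left to right within a group); black marks give the mean and SD of 4 arrays, and each panel has its own vertical scale. On average Mcm2 to Mcm6 lie higher in both knockout groups than in treated wild-type livers, while Rrm2 is lowest in the knockouts and highest in treated wild-type livers, between -0.06 and 1.08.

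The promoters of Mcm3, Mcm5, Mcm6, Mcm7 and Rrm2 are shown because they cover Mcm genes called higher in treated knockouts, 1 Mcm gene not called in any comparison, and Rrm2, which was lower. Each runs from 250 bases before to 50 after the start of the RefSeq transcript on GRCm38.p6. Capitals mark matches to the E2F letters TTTGGCGC, TTTCCCGC, TTTCGCGC or TTTGCCGC on either strand, with overlapping matches counted once. The windows are Mcm3 at chr1:20820263-20820562 on the minus strand, Mcm5 at chr8:75109259-75109558 on the plus strand, Mcm6 at chr1:128359656-128359955 on the minus strand, Mcm7 at chr5:138171834-138172133 on the minus strand (the upstream one of its pair of start sites) and Rrm2 at chr12:24708004-24708303 on the plus strand.
Mcm3: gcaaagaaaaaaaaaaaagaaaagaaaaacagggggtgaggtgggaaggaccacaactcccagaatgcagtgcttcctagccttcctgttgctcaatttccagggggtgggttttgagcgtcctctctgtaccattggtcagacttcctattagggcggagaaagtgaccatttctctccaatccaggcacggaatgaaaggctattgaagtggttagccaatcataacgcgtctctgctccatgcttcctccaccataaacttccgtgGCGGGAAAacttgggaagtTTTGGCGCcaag
Mcm5: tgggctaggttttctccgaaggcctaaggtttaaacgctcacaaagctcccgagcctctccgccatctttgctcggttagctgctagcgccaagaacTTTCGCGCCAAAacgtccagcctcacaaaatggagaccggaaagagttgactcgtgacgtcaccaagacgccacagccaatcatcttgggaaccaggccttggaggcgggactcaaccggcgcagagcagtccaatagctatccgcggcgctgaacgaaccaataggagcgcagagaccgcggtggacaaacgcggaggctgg
Mcm6: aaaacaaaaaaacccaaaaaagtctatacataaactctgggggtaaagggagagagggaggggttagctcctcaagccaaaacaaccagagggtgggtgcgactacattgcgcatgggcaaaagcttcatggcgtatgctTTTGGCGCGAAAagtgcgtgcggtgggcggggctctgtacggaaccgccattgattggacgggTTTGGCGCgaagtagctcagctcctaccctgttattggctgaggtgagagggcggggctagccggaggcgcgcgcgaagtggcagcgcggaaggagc
Mcm7: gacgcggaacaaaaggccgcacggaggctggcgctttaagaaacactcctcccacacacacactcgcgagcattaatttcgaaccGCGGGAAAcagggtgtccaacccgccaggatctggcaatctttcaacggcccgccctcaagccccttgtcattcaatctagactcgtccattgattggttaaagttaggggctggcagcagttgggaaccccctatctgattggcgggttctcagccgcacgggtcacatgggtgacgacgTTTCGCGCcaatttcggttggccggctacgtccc
Rrm2: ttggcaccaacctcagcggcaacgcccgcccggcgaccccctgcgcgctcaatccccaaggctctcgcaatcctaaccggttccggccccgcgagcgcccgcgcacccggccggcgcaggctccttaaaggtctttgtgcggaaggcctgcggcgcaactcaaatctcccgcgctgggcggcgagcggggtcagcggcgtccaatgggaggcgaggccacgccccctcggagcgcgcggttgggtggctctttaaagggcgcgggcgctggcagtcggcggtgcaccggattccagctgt
Of the 10 genes, 9 had a promoter in the RefSeq table. The E2F letters occurred in 5 of these 9 (Mcm3, Mcm5, Mcm6, Mcm7 and Cdt1). Counted by promoter this was 5 of 10, against 2.26% of all 32851 promoters of this length. Counted in bases from the start site, matches began at 20 and 39 in Mcm3, -153 in Mcm5, -110 and -47 in Mcm6, -165 and 17 in Mcm7, and 33 in Cdt1. Mcm7, which was not called in any comparison, holds 2 matches in the window shown and 0 in that of its other start site. Mcm2, which had the largest change among the Mcm genes, holds none of these letters. CCAAT, on either strand, occurred in 8 of the 9 genes, or 9 of their 10 promoters, and in 37.4% of all promoters. The glucocorticoid response element, searched as AGAACA and TGTTCT spaced by 3 bases, occurred in 0 of the 9, and in 3 promoters of the table. A match is a description of the letters in this window and not a bound site.

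The licensing factor Cdt1 was not called in any comparison. Its levels were 1.98, 0.62, 0.85 and 1.36 in treated knockout livers, against 0.53, 1.10, 0.25 and -0.15 in treated wild-type livers. The groups overlapped, and the change was 0.77 (SE 0.29, adjusted p = 0.071). The Cdt1 call was gained without treated knockout array 2 (0.96, adjusted p = 0.039) or treated wild-type array 2 (0.99, adjusted p = 0.028). In untreated livers Cdt1 was at 0.65, 1.24, 0.58 and 0.99 in knockouts, against 1.22, 1.26, 0.98 and 1.34 in wild type. That difference was -0.33 (SE 0.29, adjusted p = 0.58), of the opposite sign and not called.

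The clamp Pcna was not called in any comparison. Its probe was printed 10 times on each array, and the SD among those spots was 0.03 to 0.07. It is shown because this probe reads a transcript that did not pass the test; it lies at chr2:131990537-131990674 on mm7.
Pcna probe: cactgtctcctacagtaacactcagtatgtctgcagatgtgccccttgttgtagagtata
Pcna levels were 2.91, 2.93, 3.08 and 3.22 in treated knockout livers, against 3.26, 3.11, 3.15 and 3.33 in treated wild-type livers. The ranges overlapped, and the change was -0.18 with a 95% interval of -0.53 to 0.17 (adjusted p = 0.48). In untreated livers the change was -0.12 with an interval of -0.47 to 0.23. The 4 untreated knockout arrays ranged from 2.59 to 3.49, wider than the other groups.

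The reductase subunits moved in opposite directions. Rrm1, the large subunit, was at 1.16, 0.82, 0.84 and 0.74 in treated knockout livers, against 0.35, 0.38, 0.33 and 0.59 in treated wild-type livers. All knockout arrays lay above the wild-type arrays, for a log2 change of 0.48 (SE 0.16, 1.39-fold, adjusted p = 0.042). The Rrm1 call was lost on leaving out any of 6 of the 8 arrays, with changes of 0.39 without treated knockout array 1 (adjusted p = 0.12), 0.50 without treated knockout array 2 (adjusted p = 0.067) or 3 (adjusted p = 0.074), and 0.46, 0.47 and 0.45 without treated wild-type arrays 1, 2 and 3. The call was also lost with normexp (0.44, adjusted p = 0.075) and without the filter on dim probes (adjusted p = 0.077). In untreated livers Rrm1 differed by 0.20 (SE 0.16, adjusted p = 0.52).

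Rrm2, the small subunit, was at -2.45, -2.06, -2.79 and -2.32 in treated knockout livers, against 1.08, 0.33, -0.06 and 0.18 in treated wild-type livers. No knockout array came near the wild-type range. The log2 change was -2.79 (SE 0.34, 6.90-fold lower, adjusted p = 0.00011), and Rrm2 ranked 118 among the 18507 genes by p. With normexp background correction the change was smaller, -2.01 (adjusted p = 0.00026). The 7 genes called in this comparison were those whose groups did not overlap, 6 higher and 1 lower, where 19.8% of all genes lay wholly higher and 11.8% wholly lower.

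In untreated livers Rrm2 was the sole call among the 10 genes, in a comparison with 2.81% of all genes called, 0.789% lower. It was at -2.86, -2.70, -3.19 and -1.66 in untreated knockouts, against -0.56, -0.91, -1.75 and -0.73 in untreated wild type. Knockout array 4 reached just above wild-type array 3, so the groups overlapped. The change was -1.62 (SE 0.34, 3.07-fold lower, adjusted p = 0.022). The Rrm2 call was lost without untreated knockout array 2 (-1.59, adjusted p = 0.054), untreated wild-type array 1 (-1.47, adjusted p = 0.059) or untreated wild-type array 2 (-1.59, adjusted p = 0.068), and without both arrays of low signal (-1.45, adjusted p = 0.094). It was also lost with normexp background correction (-0.97, adjusted p = 0.21) and when only the untreated groups entered the fit (adjusted p = 0.098).

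Dexamethasone in wild-type livers raised Rrm2 and called no other gene of the 10, where 11.9% of all genes passed the threshold. Treated wild-type livers had the 4 Rrm2 levels given above, -0.06 to 1.08, against -1.75 to -0.56 in untreated wild type, with no overlap, as for 9.58% of all genes. The change was 1.37 (SE 0.34, 2.58-fold, adjusted p = 0.016). The Rrm2 call was lost without treated wild-type array 1 (1.14, adjusted p = 0.06) or untreated wild-type array 3 (1.11, adjusted p = 0.052). Cdt1 had the most negative change, -0.77 (SE 0.29), and missed the threshold (adjusted p = 0.10), though it passed without treated wild-type array 2 (-0.99, adjusted p = 0.042). The remaining 8 genes had changes of -0.42 (Mcm2, SE 0.32, adjusted p = 0.44) to 0.01 (Pcna, SE 0.16, adjusted p = 0.98). Pcna's sign turned on leaving out any of 4 of the 8 arrays.

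In knockout livers dexamethasone changed 0 of the 10 genes by the adjusted p of limma, and 0 at an unadjusted p under 0.05, where 3.53% and 16.7% of all genes passed. Changes ran from -0.12 (Mcm7, SE 0.17) to 0.33 (Cdt1, SE 0.29). For Rrm2 the change was 0.20 with a 95% interval of -0.52 to 0.92 (adjusted p = 0.82). For Mcm5 the interval, -0.65 to 1.17, reaches past 1. The response to dexamethasone in knockouts minus that in wild type was tested directly and called 0 of the 10 genes (4.6% of all genes). Cdt1 (1.10, SE 0.41, adjusted p = 0.17) and Rrm2 (-1.17, SE 0.48, adjusted p = 0.22) had unadjusted p of 0.017 and 0.027, and 16.6% of all genes had one under 0.05. A different response in the genotypes is therefore not shown for any of the 10.

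**Figure D2:**
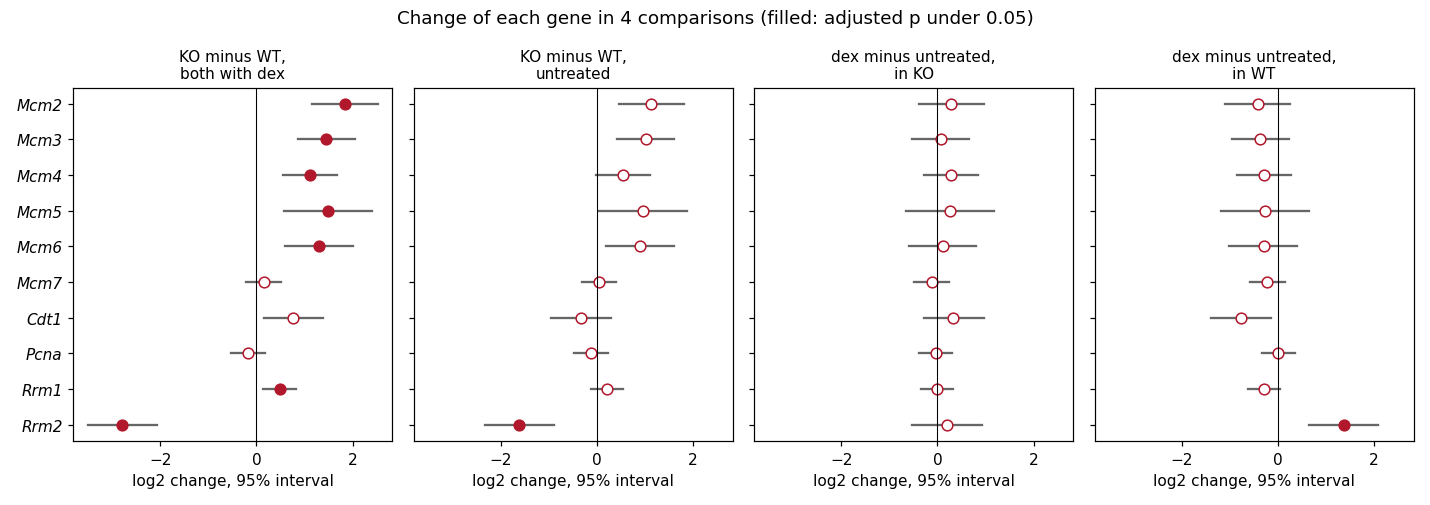
Log2 change of each gene (point) with its 95% interval (line) in 4 comparisons, each named above its panel; filled points have an adjusted p under 0.05. Under dexamethasone Mcm2 to Mcm6 and Rrm1 lie right of 0 and Rrm2 at -2.79; in knockout livers all 10 intervals for dexamethasone cross 0.

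The comparisons share groups, so the values stand side by side and not as separate evidence. In order of mean level, Rrm2 was lowest in untreated knockouts (-2.60, SD 0.66), then treated knockouts (-2.40, SD 0.30), untreated wild type (-0.99, SD 0.53) and treated wild type (0.38, SD 0.49, n = 4 in each group). The knockout groups did not differ beyond their spread. For Mcm2 treated wild type was lowest (-2.69, SD 0.29), then untreated wild type (-2.28, SD 0.19), untreated knockouts (-1.15, SD 0.48) and treated knockouts (-0.86, SD 0.76). Neither neighbouring pair of the same genotype differed beyond its spread. The within-array difference Rrm2 minus Rrm1 averaged -3.30 ± 0.38 in treated knockouts, -3.50 ± 0.39 in untreated knockouts, -0.03 ± 0.54 in treated wild type and -1.68 ± 0.52 in untreated wild type (SD, n = 4 each). Since the probes differ in brightness, only the differences between groups in this value can be read. It was -3.63 to -2.88 in treated knockouts, against -0.40 to 0.74 in treated wild type, with no overlap.

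Rrm2 and the Mcm genes ran against each other between genotypes but not within groups. Over 16 arrays Rrm2 had Pearson r of -0.746 to -0.596 with Mcm2 to Mcm6. Once each group's mean was taken out, the same 5 pairs had r of 0.214 to 0.362. Untreated knockout array 4, high for the Mcm genes, was also the array of its group with the most Rrm2, -1.66. The groups form separate clusters, so these values are descriptions only. Rrm2 was read by 1 probe, which the array's annotation places over 55 bases of mm7 for a probe of 60, so no other probe bears on its direction.

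**Figure D3:**
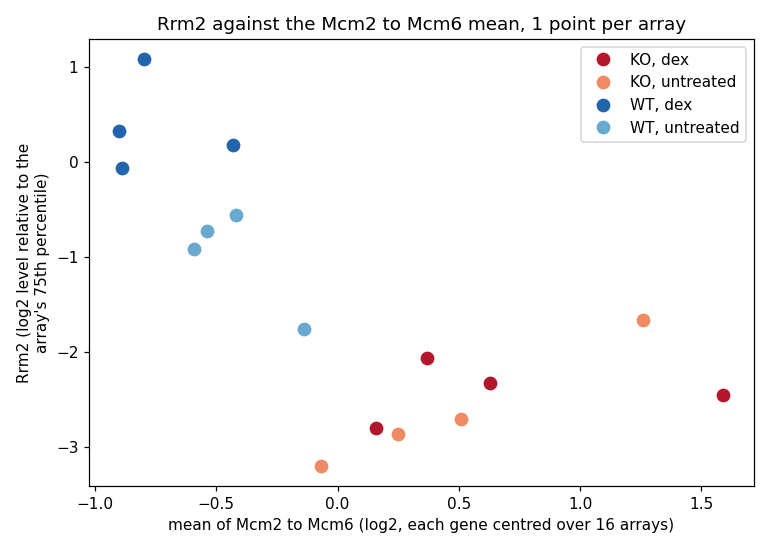
Each point is 1 array: the horizontal axis is the mean log2 level of Mcm2 to Mcm6, each centred over the 16 arrays, and the vertical axis the log2 level of Rrm2. The 8 knockout arrays lie at Rrm2 levels of -3.19 to -1.66, below all but 1 of the wild-type arrays, untreated array 3 at -1.75.

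Of the 5 genes most like the mean of the 10 over the 16 arrays, by Pearson r among 15120 genes with a symbol, Rbl1 came first (r = 0.925), followed by Ly6d (0.895), Dtl (0.868), Exo1 (0.866) and Sncg (0.864). Rbl1 encodes p107, a pocket protein that binds E2F factors, Dtl a substrate receptor for the ubiquitin ligase that destroys Cdt1, and Exo1 an exonuclease of DNA repair. After the results were seen, Mcm2 to Mcm6 and Rrm2 were also ranked apart. The Mcm2 to Mcm6 mean was closest to Rbl1 (0.971) and Slc1a4 (0.953). Rrm2 was closest to Tcim (0.961), Omd (0.96), Slc37a4 (0.955), Cpm (0.95) and Amy1 (0.946). Slc37a4 is the glucose-6-phosphate transporter of the endoplasmic reticulum and Amy1 an amylase. After each group's mean was taken out, r with the Mcm2 to Mcm6 mean was 0.929 for Rbl1 and 0.859 for Slc1a4. For the 5 genes closest to Rrm2, r with Rrm2 was then 0.652 (Omd) to 0.712 (Slc37a4). Since Rrm2 and Mcm2 to Mcm6 ran against each other over the 16 arrays, the rankings had to name different genes, which is not a further result.

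Of the other genes of the replication fork, 15 of 27 tested were higher in treated knockout than in treated wild-type livers and 1 was lower, against 14% and 8.27% of all genes. Their median change was 0.66. They included the catalytic polymerase subunits Pola1 (1.11, SE 0.22, adjusted p = 0.0025) and Pold1 (1.29, SE 0.20, adjusted p = 0.00051). Rfc3, of the complex that loads Pcna, was higher by 1.55 (SE 0.24, adjusted p = 0.00058) and its partner Rfc2 by 0.69 (SE 0.10, adjusted p = 0.00042). The Rfc2 call was lost in 2 of 14 processing alternatives. Pole2, of polymerase epsilon, was not well above background on any treated wild-type array and at least 2.02-fold higher in treated knockouts. That bound sets the treated knockout mean against the lowest signal well above background on each wild-type array. The limma call of Pole2 (adjusted p = 0.0015), counted among the 15, rests on the measured wild-type mean of -5.88 and does not test the bound. The Pole2 change ran from 0.72 to 1.78 over 14 processing alternatives, and 1 of them lost the call. The gene that was lower was Pole4, a histone-fold subunit of polymerase epsilon (-1.83, SE 0.26, adjusted p = 0.00031).

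Dexamethasone in wild-type livers moved the same list the other way, with 8 of 27 lower, 1 higher and a median of -0.41, against 6.67% and 5.2% of all genes. The comparisons share the treated wild-type arrays, so this is not separate evidence. Those that fell included Rfc2 (-0.50, SE 0.10, adjusted p = 0.006), Rfc5 (-0.63, SE 0.13, adjusted p = 0.0078), Rfc3 (-1.11, SE 0.24, adjusted p = 0.0091) and Pola2 (-1.15, SE 0.25, adjusted p = 0.0094). Over 14 processing alternatives the call of Rfc2 was lost in 2, and those of Rfc5 and Pola2 in 1 each. Pole4 rose by 1.42 (SE 0.26, adjusted p = 0.0032). In knockout livers dexamethasone called 0 of the 27, where 3.53% of all genes were called. Between untreated genotypes 0 of 27 were called by limma, where 2.81% of all genes were called. With the p left unadjusted at 0.05, 9 were higher there and 1 lower (13.3% and 6.12% of all genes). Among the replication and cell-cycle lists, Rfc3 alone was called for its response to dexamethasone in knockouts minus that in wild type, 1.28 (SE 0.34, adjusted p = 0.045). It was 1 of the 27 fork genes, where 4.6% of all genes were called for that difference. This Rfc3 call was lost on leaving out any of 13 of the 16 arrays, with changes of 1.01 to 1.44 over all 16 such fits.

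Genes of deoxynucleotide supply other than Rrm1 and Rrm2 gave 4 higher and 0 lower of 15 in treated knockouts, against 14% and 8.27% of all genes. Dck, which phosphorylates deoxycytidine, was higher in treated knockouts by 1.28 (SE 0.20, adjusted p = 0.0007), Dut, which breaks down dUTP, by 0.74 (SE 0.13, adjusted p = 0.0013), Umps of pyrimidine synthesis by 0.69 (SE 0.17, adjusted p = 0.0099) and the thymidine kinase Tk1 by 1.10 (SE 0.31, adjusted p = 0.019). The Tk1 call was lost without treated knockout array 2, 3 or 4 or treated wild-type array 1, with changes of 0.89 to 1.05. In wild-type livers dexamethasone lowered 3 of the 15, against 6.67% of all genes. They were Tk1 (-1.55, SE 0.31, adjusted p = 0.0052), Dut (-0.67, SE 0.13, adjusted p = 0.0043) and Dck (-0.84, SE 0.20, adjusted p = 0.015). The Dck call was lost without untreated wild-type array 1 (-0.76) or 2 (-0.77). Rrm2 moved against these genes in both comparisons. Rrm2b, the small subunit used outside S phase, was not called in any comparison.

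Of the licensing and initiation genes, 4 of 17 were higher and 1 lower in treated knockouts, against 14% and 8.27% of all genes. Gmnn, the inhibitor of Cdt1, was higher by 0.76 (SE 0.20, adjusted p = 0.016), and Orc4, of the origin recognition complex, was lower (-0.40, SE 0.11, adjusted p = 0.021). The other higher genes were Dbf4, Gins3 and Mcm9, and the calls of Dbf4 and Gins3 were lost on leaving out any of 5 and 2 of the 8 arrays. Gmnn lost its call without treated wild-type array 3 (0.65), and Orc4 without treated knockout array 4 (-0.34) or treated wild-type array 1 (-0.37) or 2 (-0.35). In wild-type livers dexamethasone lowered Gmnn (-0.87, SE 0.20, adjusted p = 0.013), Dbf4 (-0.93) and Mcm9 (-0.43), and raised Orc3 (0.61). Without untreated wild-type array 2 the calls of Gmnn (-0.78) and Mcm9 (-0.40) were lost, and that of Orc3 on leaving out any of 7 of the 8 arrays.

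The G1/S list gave 8 higher and 2 lower of 26 in treated knockouts, against 14% and 8.27% of all genes. Among the higher were Cdk6 (1.22, SE 0.20, adjusted p = 0.00077), E2f2 (1.59, SE 0.35, adjusted p = 0.0049), Rbl1 (1.03, SE 0.26, adjusted p = 0.011) and Ccnd1 (1.04, SE 0.27, adjusted p = 0.015). The 2 lower genes were Cdkn1a, which encodes the cyclin-dependent kinase inhibitor p21 (-4.92, SE 0.81, adjusted p = 0.00087), and E2f7 (-1.81, SE 0.42, adjusted p = 0.007). The E2f7 change ran from -1.99 to -0.37 over 14 processing alternatives, and 1 of them lost the call. In wild-type livers dexamethasone raised Cdkn1a by 5.78 (SE 0.81, adjusted p = 0.00075), to 3.91 ± 0.56 in treated livers, against -1.87 ± 2.08 in untreated livers (SD, n = 4 each). It also lowered Ccnd2 (-1.01), E2f2 (-1.44), Cdk6 (-0.75) and Ccne1 (-0.79). The E2f2 call was lost without treated wild-type array 1 (-1.34), that of Cdk6 on leaving out any of 5 of the 8 arrays and that of Ccne1 on leaving out any of 4. In knockout livers Ccnd2, a D-type cyclin, was the sole gene of these lists called for dexamethasone (-1.17, SE 0.17, adjusted p = 0.0035), where 3.53% of all genes were called. Cdkn1a changed there by 1.81 (SE 0.81, limma unadjusted p = 0.042, adjusted p = 0.28). Its response to dexamethasone in knockouts minus that in wild type, -3.97, was not called, though 3 of 13 processing alternatives called it. A rise of Cdkn1a confined to wild type is therefore not shown.

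Of the mitotic genes, 1 of 15 was called in treated livers, against 22.3% of all genes. It was Cenpa, the centromeric histone H3, which was higher in knockouts (1.44, SE 0.21, adjusted p = 0.00039), and the list's median was -0.13. Mki67, a marker of cycling cells, differed by 0.08 there (SE 0.45, adjusted p = 0.93). In untreated livers all 15 had positive changes in knockouts, with a median of 0.98. Of these, 8 of 15 had an unadjusted limma p under 0.05 (13.3% of all genes were higher by that rule). By the adjusted p of limma 0 of 15 were called, where 2.81% of all genes were called. Mki67 was higher there by 0.98 (SE 0.45, adjusted p = 0.25). Dexamethasone in knockouts gave positive changes in 0 of 15, with a median of -0.78 and 0 called, where 3.53% of all genes were called. In wild type 14 of 15 were positive, with a median of 0.35. Cenpa alone was called there and went the other way, lower by -1.33, where 6.67% of all genes were called lower. Since these genes were measured on the same arrays, a sign shared within a comparison is not 15 separate observations.

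**Figure D4:**
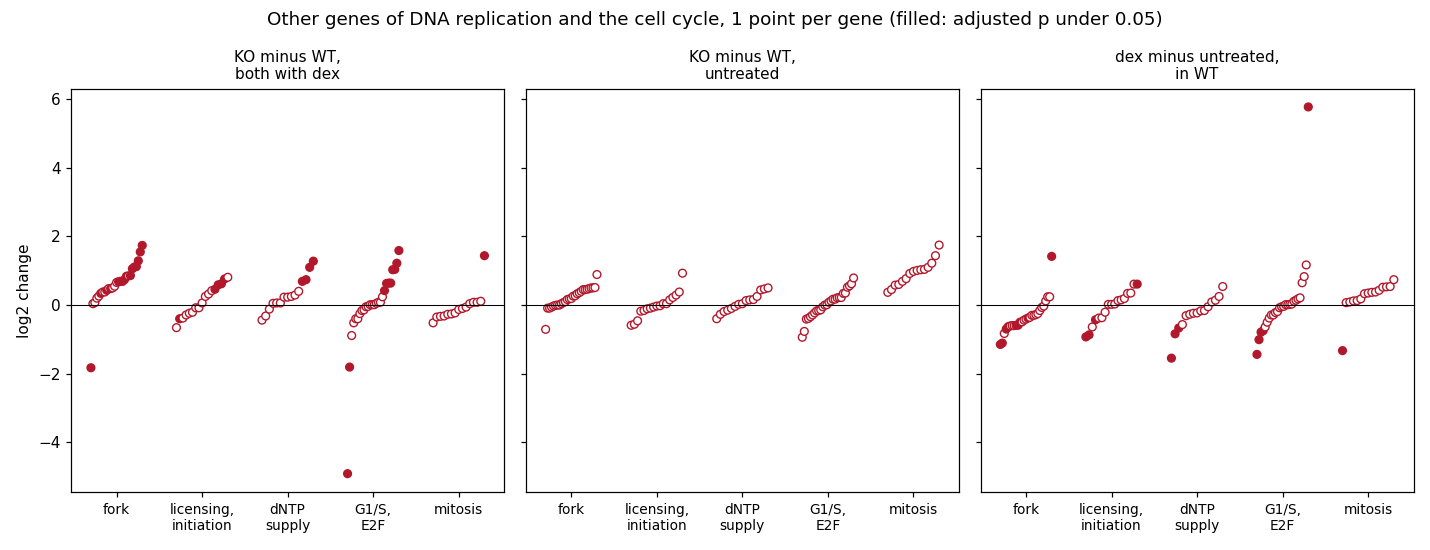
Log2 change of each other replication or cell-cycle gene tested (1 point per gene, sorted within its list) in 3 comparisons, each named above its panel; filled points have an adjusted p under 0.05. In treated livers 15 of the 27 fork genes are called higher in knockouts, against 14% of all genes. In untreated livers none of the points is filled, where 2.81% of all genes were called. Cdkn1a is the extreme point of the outer panels.

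Markers of other cells were measured on the same arrays, and no list was tested as a group. Between treated genotypes 14% of all genes were called higher in knockouts and 8.27% lower, the shares to set beside the marker counts. The log2 of the summed level of 7 B-cell markers was -0.82 to -0.55 in treated knockouts, against -1.54 to -1.10 in treated wild type. Of these, Cd79a was called higher (1.06, SE 0.36, adjusted p = 0.048). Pax5 was called too, but it was above background on none of the wild-type arrays and passed the filter only through the treated knockouts, so its call supports nothing. For 7 neutrophil and early myeloid markers it was -0.82 to 1.22 in treated knockouts, against -1.60 to -0.38 in treated wild type, with 1 of 4 called higher and Elane above background on 0 of 16 arrays. For 8 Kupffer cell and macrophage markers it was 5.73 to 6.59 in treated knockouts, against 5.18 to 5.99 in treated wild type, with 0 of 8 called. The 9 hepatocyte markers summed to 11.11 to 11.31 in treated knockouts, against 11.52 to 11.71 in treated wild type, with 5 of 9 called lower. The erythroid sum was 6.71 to 7.27 in treated knockouts, against 6.55 to 7.52 in treated wild type, with 1 of 4 tested called higher, Alas2 of heme synthesis (0.48, SE 0.15, adjusted p = 0.031). The part of these cells in the Mcm and Rrm changes was not tested. Dexamethasone lowered 3 of 6 B-cell markers in each genotype, where 6.67% of all genes were called lower in wild type and 3.53% were called in either direction in knockouts. Their sum was -0.82 to -0.55 in treated knockouts, against 0.03 to 1.34 in untreated knockouts.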

How the data were processed

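Liver RNA was labelled with Cy3 and hybridised to 16 Agilent mouse arrays, and the authors deposited the scanner output of each array, in intensity units per spot, with a series table. Spot intensity (gProcessedSignal) was background-subtracted by the scanner software, per the file headers, which the submitters' processing notes give as Agilent Feature Extraction 9.5. The deposited series table holds the same intensity, neither logged nor scaled between arrays, with a largest difference of 0 from the scanner values and column medians of 35.4 to 60.8 units.

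Control spots and outlier-flagged spots (0.31%) were left out and spots of a probe averaged. Each array's 75th percentile of log2 intensity was subtracted. A probe was kept (26794) if 3 or more of the 4 arrays of some group had it well above background, and the kept probe of highest mean stood for a gene. Probes were named through RefSeq GRCm38.p6, 22951 by accession and 9768 by symbol or synonym, with 8455 unnamed; coordinates printed for probes are mm7, from the array's annotation. limma 3.58.1 in R 4.3.3 fitted 4 group means (12 residual degrees of freedom), with Benjamini-Hochberg adjustment over 18507 genes and a threshold of 0.05, two-sided. The number of arrays limits the precision. The fit was tested on simulated data.

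The 10 genes and all lists were chosen with earlier results of these data known. Genes named beside them are Nr3c1, Cdkn1a, Gmnn, Mki67, Rrm2b and the 5 genes most like the mean of the 10. From each replication and cell-cycle list, up to 4 called genes of smallest adjusted p per direction and comparison are named. Pola1, a further called fork gene, and some cell-type markers are named outside that rule. Ranking the Mcm2 to Mcm6 mean and Rrm2 apart, leaving out both arrays of low signal and leaving out both knockout arrays of highest Mcm level were chosen after seeing the data. The lists held 20 licensing and initiation genes (17 tested), 28 fork genes (27), 17 of deoxynucleotide supply (15), 27 of G1/S control and E2F (26) and 20 mitotic genes (15); T and NK cell, sinusoidal endothelial, stellate and bile duct markers were also measured. Of these, T and NK cell markers had 0 of 6 called higher and 1 lower in treated knockouts, endothelial 0 of 7 called, stellate 0 of 6, and bile duct 0 higher and 1 lower of 5. Over all genes 14% were called higher and 8.27% lower there. Replicate numbers were shared between groups, and whether they pair arrays is not stated. Over the 24 pairs of same-numbered arrays, deviations from group means had a median r of 0.077 (-0.163 to 0.449), with r over 0.1 in 8. No block was used in the main fit.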

Additional observations from a re-analysis of the deposited data

Results flagged for a closer look

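Rfc3, a subunit of the complex that loads Pcna, was called for a different response to dexamethasone in the 2 genotypes, a call that was not stable. The response in knockout livers minus that in wild-type livers was 1.28 (SE 0.34, limma adjusted p = 0.045). Rfc3 was the sole gene of the replication and cell-cycle lists called for that difference, where 4.6% of all genes were called. It fell short of the threshold on leaving out any of 13 of the 16 arrays (1.01 to 1.44 over the 16 fits), and also without the filter on dim probes, with normexp (0.94), with quantile normalization and with the replicate block. Levels of the 10 genes were looked at in 40 sets of 4 arrays for an array far from the other 3, by Dixon's 95% critical value. Chance gives about 1 such set in 20, and 0 of the 40 had one.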

How the results depend on the processing

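Under dexamethasone, Mcm2, Mcm3, Mcm4, Mcm6 and Rrm2 kept their direction and call under each of the 14 alternatives and each of the 8 fits without 1 array; Mcm5 kept them under the 14. Of these, the series table gives the same values by construction, since it holds the scanner intensity. Rrm1 missed the threshold without the filter on dim probes, with normexp, without both knockout arrays of highest Mcm level and with a log2 change of at least 1. The number of the 10 called there was 5 to 7 without 1 array. The sign of Mcm7 turned without both knockout arrays of highest Mcm level and without treated knockout array 1 (-0.02 in each; range -0.02 to 0.23), that of Mki67 in 3 fits (-0.14 to 0.46). In untreated livers Mcm7 turned to -0.03 with normexp (-0.07 to 0.12 without 1 array) and Pcna to 0 with array weights (-0.26 to 0.04). Rrm2 there missed the threshold with normexp (-0.97), when other groups left the fit, and without both arrays of low signal. For dexamethasone in wild type, Pcna turned to 0 with the percentile of bright probes and to -0.04 without both arrays of low signal (-0.04 to 0.09 without 1 array).

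Of the 10, those called between untreated genotypes numbered 2 with the percentile of bright probes, 5 with array weights, 0 with normexp, 0 with only the groups compared, 2 with the replicate block, 0 without both arrays of low signal, 2 without both knockout arrays of highest Mcm level, and 0 to 3 without 1 array. For dexamethasone in wild type they numbered 2 with array weights and 0 to 2 without 1 array. Fork genes called fell to 7 in treated genotypes with a log2 change of at least 1, and for dexamethasone in wild type were 14 with array weights, 4 with normexp and 3 with a log2 change of at least 1.

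Over all genes, calls with array weights were 6758 (treated genotypes), 2067 (untreated genotypes), 5069 (dexamethasone in wild type), 2093 (in knockouts) and 2966 (difference of responses). With normexp they were 2359, 85, 1190, 47 and 107, and with a log2 change of at least 1 they were 1821, 319, 825 and 428 in the first 4 of these. Without the filter they were 261 (untreated genotypes), 399 (dexamethasone in knockouts) and 548 (difference of responses). With only the groups compared they were 80 (untreated genotypes) and 132 (dexamethasone in knockouts), and quantile normalization gave 1093 for the last. Without both arrays of low signal they were 3403 (dexamethasone in wild type), 1093 (in knockouts) and 1527 (difference of responses). Without 1 array they ranged over 2927 to 3688, 151 to 621, 1211 to 2209, 302 to 947 and 488 to 1504. The cause of these shifts was not tested, except that fewer arrays or a stricter rule enter by construction.

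The replicate block, with replicate numbers that were not taken to pair arrays, added Mcm2 in untreated livers (1.13, adjusted p = 0.047). No slide block could be run, since each slide held 1 group. Small changes of Pcna and Mcm7 lie within the spread of 4 arrays, and a single probe carries 9 of the 10 genes.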
